A study of Macaca mulatta with 304 samples.

Results

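The 8 genes described here are targets of the transcription factor p53 other than those most often read after irradiation: the death receptors FAS and TNFRSF10B, the cell cycle and feedback genes CCNG1 and PPM1D, and ZMAT3, RPS27L, SESN1 and TP53INP1. They were taken by symbol, as a group named with earlier results of these data known, from the 21070 genes of a whole blood RNA-seq count table, and all 8 were among the 13751 genes that were tested. They did not move as 1 group. TNFRSF10B and ZMAT3 rose within 3 days of thoracic irradiation and were back near control by Day 15, RPS27L and CCNG1 stayed higher to Day 21, TP53INP1 rose most after Day 90, and SESN1 was lower late.

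p53 is activated by kinases that sense DNA breaks and then binds response elements in or near its target genes. Its targets slow the cell cycle, prepare the cell for death through membrane receptors and mitochondria, and shut p53 itself off again. Circulating lymphocytes, B cells above all, are among the most radiation-sensitive cells of the body, so that whole blood is a common tissue for reading this response.

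Thoracic lung irradiation was given to healthy rhesus macaques (Macaca mulatta, Chinese sub-strain, 3 to 5 years old), whose blood was followed to Day 270. A lower dose (LD, 9.8 Gy) was given to 12 animals and a higher dose (HD, 10.7 Gy) to 16, with as many males as females in each. The 24 control samples were taken 2 days before irradiation from 12 LD and 12 HD animals. In the main fits, each comparison with control set an animal against itself, and all of these comparisons share the control samples. There was no sham-irradiated group, so time, repeated bleeding, supportive care and irradiation cannot be told apart. Supportive care included analgesics in all animals and dexamethasone, a glucocorticoid, in animals with rapid breathing, and its use in single animals was not analysed here. After irradiation samples fell into early (Day 3 to 21), medium (after Day 21 to Day 90, 95 samples) and late (after Day 90, 53 samples) time points. The late samples came from 16 animals, 14 of which had a control, and 43 of them were LD. According to the paper, animals died or were euthanised during follow-up, so late values come from animals that lived long enough to be sampled.

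Levels by day are over all samples of the day (28 on Days 6, 9, 21 and 30, of which 4 had no control). Changes from control and their tests are over animals with a control. The late against medium comparison and the alternative fits over irradiated samples alone or over all samples also include animals without one. The 304 libraries held 2840219 to 23638161 counts, with a median of 8227563. Leukocyte RNA was present in every library: PTPRC, the pan-leukocyte gene, was at 708 CPM or more, where CPM is a gene's count relative to the library total after upper quartile scaling (window levels were scaled over the samples of their own comparison and differ slightly). The labels give some libraries a number and do not say what it means. It was used here to divide the libraries into 3 series, A below 150, B from 150 on and C with no number, and the limit of 150 and the reading as series are choices of this work and not a batch that the labels name. Of the controls, 20 were of series A and 4 of series C, and no medium or late sample was of series A. All animals had control and sample in 1 series on Days 3 to 15, 16 of 24 did on Day 21, 4 did on Day 30, and none did on a scheduled day after Day 90, so that late changes and library series cannot be told apart. A library of an LD animal on Day 150, of an HD animal on Day 40 and of an HD animal on Day 120 correlated least with the rest (median r 0.828, 0.836 and 0.841), and stay in all values given unless it is said that they were left out.

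The p53 response element consists of 2 arms of 10 bases. Each gene was searched on both strands from 2000 bases before to 3000 bases after its start in the Mmul_10 genome with its RefSeq annotation, and the best match without a spacer was scored over the 20 positions. The matches of ZMAT3 and CCNG1, the most complete, and those of FAS, RPS27L and PPM1D, for contrast, are shown, 5′ to 3′ on the strand of the match, with the 4 central bases of each arm in capitals.
ZMAT3: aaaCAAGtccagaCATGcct
CCNG1: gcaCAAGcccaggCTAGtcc
FAS: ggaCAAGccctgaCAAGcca
RPS27L: gggCATGtagtgaCTTGccc
PPM1D: ggaCAAGtccagaCATCgcg

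The ZMAT3 sequence, in an intron at chr2:84203078-84203097, matched all 20 positions, and only 0.0529% of the 20782 windows searched in the genome held as good a match. The CCNG1 sequence, in an intron at chr6:160795768-160795787, matched 19 of 20, as did or bettered 0.972% of windows. FAS matched 18 of 20 in an untranslated part of an exon at chr9:89259306-89259325, and TNFRSF10B matched 18 of 20 in an intron, a score that 11.7% of windows reach. RPS27L (chr7:39601574-39601593), PPM1D (6 equal matches, of which that at chr16:35156015-35156034, upstream of the gene start, is shown), SESN1 and TP53INP1 matched 17 of 20, which 66.6% of windows also do, so that their scores set them apart from few genes. These are matches of letters and not binding sites.

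Per length, CCNG1 was the highest of the 8 in the controls and TNFRSF10B the lowest. The median control level was 34.7 CPM per kilobase of exon for CCNG1, 22.98 for TP53INP1, 22.8 for PPM1D, 11.9 for SESN1, 10.7 for FAS, 8.22 for ZMAT3, 4.81 for RPS27L and 1.70 for TNFRSF10B. Neighbours in this order had overlapping ranges over the 24 animals. TNFRSF10B and RPS27L therefore rest on few reads, with 37 to 143 and 15 to 150 counts in a control, and fell to 0 counts in the shallowest library.

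**Figure D1:**
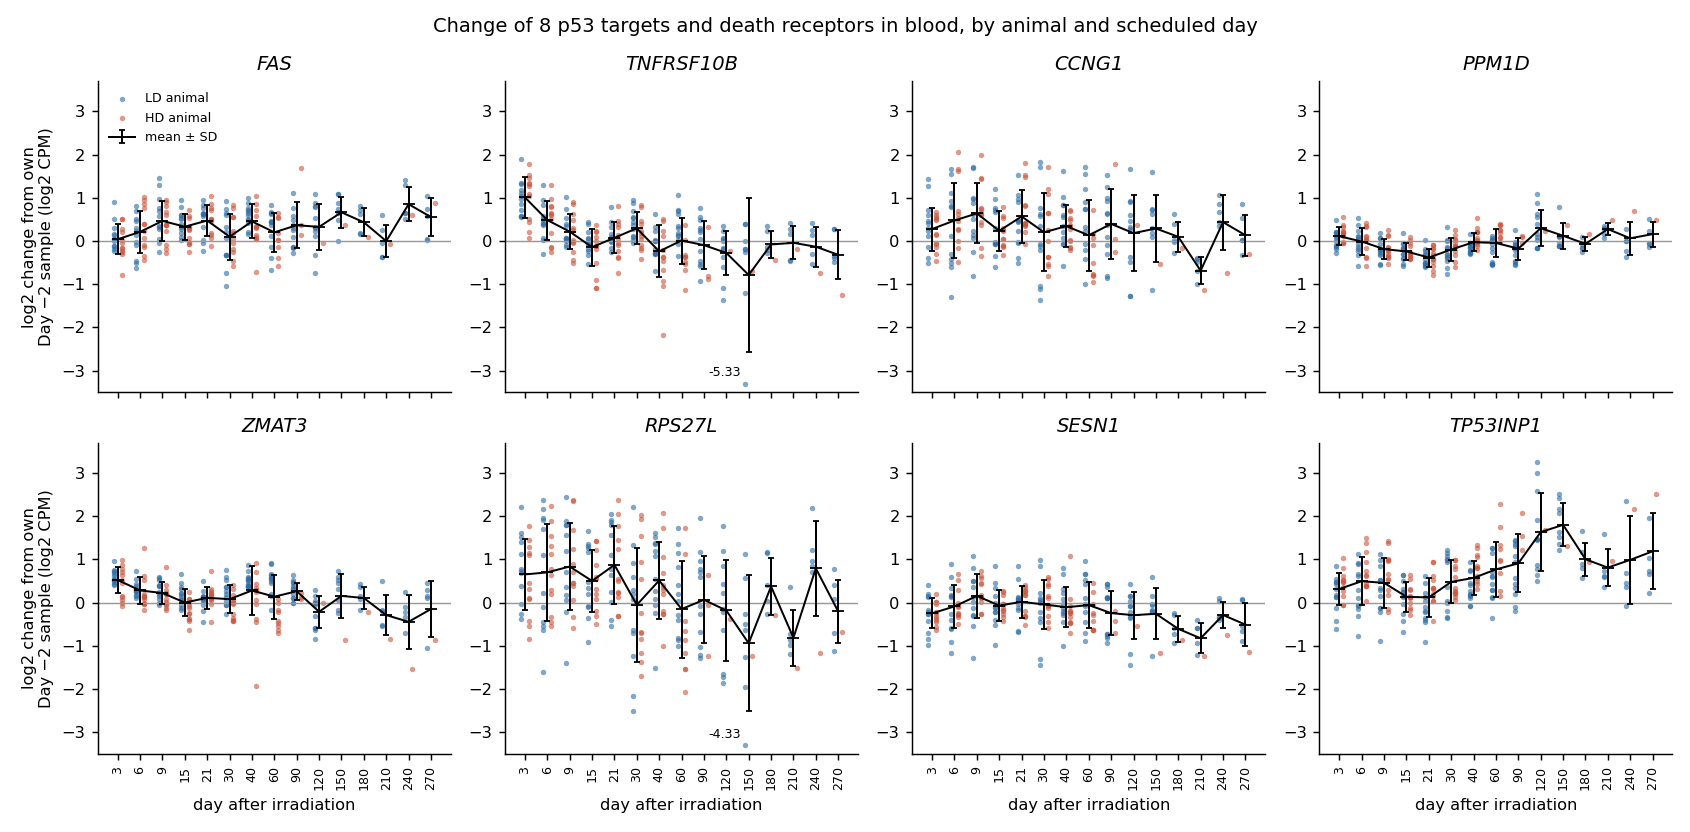
Change of each animal from its own control in log2 CPM (y axis) by scheduled day (x axis), with 1 point per animal, LD in blue and HD in red, and the mean ± SD in black. TNFRSF10B and ZMAT3 stand highest on Day 3 and TP53INP1 on Day 150; 2 points of 1 LD library on Day 150, TNFRSF10B at -5.33 and RPS27L at -4.33, lie below the axis and are drawn at its lower edge with their values.

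A gene was called where the adjusted p (edgeR quasi-likelihood F test blocked on animal, Benjamini-Hochberg) was at most 0.05 and the fold at least 1.5, and is said to have passed where the adjusted p was at most 0.05 whatever its fold, so that genes called are among those that passed. Over the early window, 1 of the 8 genes was called, against a background of 7.53% of all genes tested, and 7 passed, against 49.1%. Over the medium window 1 was called (background 5.75%) and 2 passed (45.3%), and over the late window 1 was called (32.5%) and 3 passed (55.3%). The share called among the 8 genes was thus close to the background early and medium and below it late. Their median log2 fold change was 0.30 early, 0.18 in the medium window and 0.00 late, and over all genes tested it was -0.02, -0.02 and -0.13.

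Of the 120 combinations of the 8 genes with the 15 scheduled days, 18 were called and 50 passed. By day, the share of all genes called ran from 0.00727% (Day 270) to 31.8% (Day 120). The share that passed ran from 0.00727% (Day 270) to 53.9% (Day 3). TP53INP1 was called higher on 6 days and passed higher on 11, the most of the 8. RPS27L was called higher on 4 days, FAS on 2, TNFRSF10B and CCNG1 on 1 each, and ZMAT3 passed higher on 5 days with no call. Lower calls were 2 for SESN1 and 1 each for RPS27L and CCNG1, all on Days 180 or 210, when 18.7% and 29.8% of all genes were called. PPM1D was never called and passed lower on 4 days and higher on 1.

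By day, the count of the 8 genes called was highest on Day 210, with 4, and lay on either side of the background over the series. On Day 3, 2 were called and 7 passed (backgrounds 11.5% and 53.9%), on Day 6, 1 and 5 (11.5% and 44.6%), on Day 9, 2 and 7 (7.58% and 50.1%), on Day 15, 0 and 4 (6.01% and 40.7%), and on Day 21, 1 and 4 (10.4% and 52.2%). In the medium window the counts were 0 and 3 on Day 30 (5.9% and 26%), 0 and 5 on Day 40 (6.92% and 43.9%), 1 and 1 on Day 60 (4.23% and 19.7%) and 1 and 3 on Day 90 (7.06% and 21.6%). They were 1 and 1 on Day 120 (31.8% and 44.7%), 2 and 2 on Day 150 (31.5% and 37.4%), 2 and 3 on Day 180 (18.7% and 25.6%), 4 and 4 on Day 210 (29.8% and 42.4%) and 1 and 1 on Day 240 (6.76% for both). On Day 270 none was called or passed by edgeR (0.00727% for both), while 3 of the 8 had an unadjusted p under 0.05, as did 29.5% of all genes, and DESeq2 called 2 of the 8 and 2383 of 13751 genes.

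**Figure D2:**
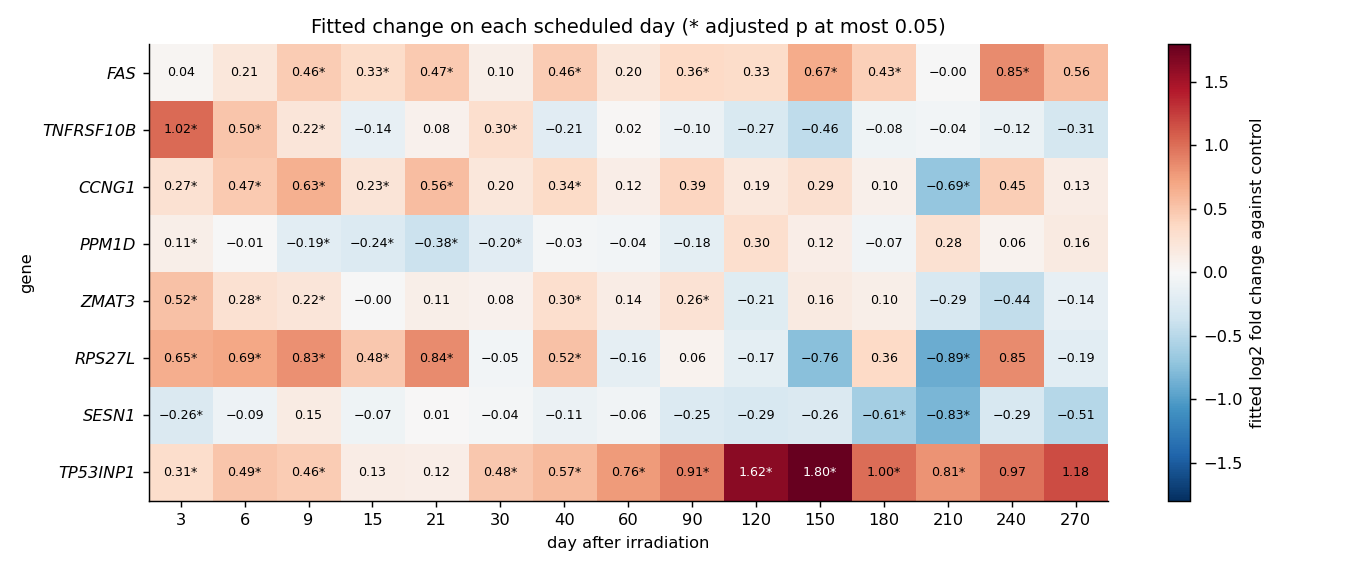
Log2 fold change against control, as colour and printed value, of each gene (vertical) on each scheduled day (horizontal) from the edgeR fit, where a star marks an adjusted p of at most 0.05. TNFRSF10B and ZMAT3 are highest on Day 3 (1.02 and 0.52), and TP53INP1 is above 0 on every day, with its highest value, 1.796, on Day 150.

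TNFRSF10B, which encodes the death receptor DR5 that binds the ligand TRAIL, showed the largest change of the 8 on Day 3. It lay at 3.68, 7.22 and 12.01 CPM (lowest, median and highest of 24) in the controls and at 8.21, 14.1 and 22.9 CPM on Day 3. Every one of the 24 animals was higher on Day 3 than before irradiation, by 0.07 to 1.89 on the log2 scale, although the ranges overlapped. The log2 fold change was 1.02 (SE 0.10, adjusted p = 4.8e-10), on a day on which 11.5% of all genes were called and 53.9% passed.

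The rise was short. TNFRSF10B had a median of 9.35 CPM on Day 6 (log2 fold change 0.50, SE 0.10, adjusted p = 0.00016), 7.67 CPM on Day 9 (0.22, SE 0.09, adjusted p = 0.046) and 5.99 CPM on Day 15 (-0.14, SE 0.09, adjusted p = 0.21). From Day 3 to Day 21 it fell in 24 of 24 animals, by 0.95 on the log2 scale (SE 0.09, adjusted p = 1.7e-10), the only call of the 8 genes in a comparison in which 15.1% of all genes were called and 68% passed, as did 7 of the 8. In the 16 animals whose 2 samples were of 1 library series the fall was 0.96. It passed once more, on Day 30 (0.30, SE 0.09, adjusted p = 0.015), when 19 of 24 animals were higher than before irradiation.

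TNFRSF10B spans chr8:23207896-23260868 on the minus strand, where it overlaps RHOBTB2 on the other strand, and the strand setting of the authors' counting is not given in the sources used here. Its 50-base stretches are nearly all its own, with 0.0465% shared with its neighbour TNFRSF10A, the other TRAIL death receptor. For TNFRSF10A the log2 fold change was -0.16 on Day 3 (SE 0.05, adjusted p = 0.011) and 0.38 late (SE 0.12, adjusted p = 0.010), where TNFRSF10B gave -0.16 (SE 0.11, adjusted p = 0.23). The difference between the 2 genes was not tested. Among the other members, PPM1D overlaps LOC114673378 on the other strand and SESN1 overlaps LOC114677812 on its own strand. How reads within these overlaps were counted is not given either.

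FAS, the receptor of FAS ligand on activated lymphocytes and myeloid cells, took the opposite course. It was at 24.5, 39.9 and 61.3 CPM in the controls and at 25.0, 39.2 and 58.9 CPM on Day 3, with 12 of 24 animals higher and a log2 fold change of 0.04 (SE 0.07, adjusted p = 0.65). By Day 9 the median was 51.4 CPM (0.46, SE 0.09, adjusted p = 0.00027), and on Day 21 it was 55.8 CPM (0.47, SE 0.07, adjusted p = 3.4e-06), with 21 of 24 animals above their control. The 2 death receptors thus moved in opposite directions between Day 3 and Day 21, FAS by 0.43 (SE 0.06, adjusted p = 9.3e-07) upward in 21 animals.

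After Day 21 FAS kept passing on scattered days. It was higher than control in 23 of 24 animals on Day 40 (0.46, SE 0.08, adjusted p = 4.9e-05), in 8 of 9 on Day 150 (0.67, SE 0.15, adjusted p = 0.0031) and in 6 of 6 on Day 240 (0.85, SE 0.18, adjusted p = 0.023), the last 2 being calls against backgrounds of 31.5% and 6.76%. Without the libraries that stand apart FAS was 0.51 on Day 40 (23 animals, adjusted p = 4.9e-07) and 0.61 on Day 150 (8 animals, adjusted p = 0.0076). On Day 210, between them, only 2 of 6 animals were higher and the log2 fold change was -0.003 (SE 0.15). Over the medium window its log2 fold change was 0.29 (SE 0.07, adjusted p = 0.0012), and over the late window 0.31 (SE 0.13, adjusted p = 0.047) with 10 of 14 animals higher. The late value did not stand firmly: without single animals it ranged from 0.24 to 0.39 and missed the threshold in 10 of 14 fits.

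ZMAT3, a zinc finger protein that binds RNA and regulates splicing downstream of p53, rose in step with TNFRSF10B in time but by less. It was at 46.8, 75.1 and 99.2 CPM in the controls and at 67.5, 108.8 and 145 CPM on Day 3. The rise was seen in 22 of 24 animals, with a log2 fold change of 0.52 (SE 0.06, adjusted p = 2e-08), just under the fold limit. It was 0.28 on Day 6 (SE 0.06, adjusted p = 0.00095), 0.22 on Day 9 (SE 0.06, adjusted p = 0.0023) and -0.001 on Day 15 (SE 0.06), and from Day 3 to Day 21 ZMAT3 fell by 0.41 (SE 0.05, adjusted p = 1.3e-07) in 22 of 24 animals. Over both doses together, a second, smaller rise passed on Day 40 (0.30, SE 0.11, adjusted p = 0.023). Without the HD library that stands apart the Day 40 value was 0.38 (adjusted p = 4.9e-05). The rise also passed on Day 90 (0.26, SE 0.07, adjusted p = 0.018, 13 of 15 animals). Mean changes on Days 3 and 40 were 0.61 and 0.52 in LD animals, and 0.43 and 0.04 in HD animals with all libraries.

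CCNG1, the cyclin G1 that recruits a phosphatase to MDM2, rose later and more unevenly. Its controls lay at 33.6, 84.1 and 139 CPM and its Day 9 samples at 68.3, 119.3 and 187 CPM. On Day 3 the log2 fold change was 0.27 (SE 0.09, adjusted p = 0.015), on Day 9 it was 0.63 (SE 0.13, adjusted p = 0.00043), a call on a day with 7.58% of all genes called, and on Day 21 it was 0.56 (SE 0.11, adjusted p = 0.00017). The animals differed widely: on Day 9 single changes ran from -0.82 to 1.99, with 20 of 24 animals higher. The Day 9 value slipped under the fold limit without the animal block (0.58).

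CCNG1 was called lower once, on Day 210. All 6 animals were then below their control, by 0.39 to 1.14, at 38.2, 48.5 and 59.9 CPM, with a log2 fold change of -0.69 (SE 0.14, adjusted p = 0.0021) where 29.8% of all genes were called. On Day 180 and Day 240 the values were 0.10 (SE 0.14, adjusted p = 0.66) and 0.45 (SE 0.23, adjusted p = 0.22). With DESeq2 the Day 210 value was -0.57, under the fold limit.

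PPM1D, the phosphatase WIP1 that switches off p53 and its kinases, had the narrowest relative spread of the 8 in the controls. Its controls lay at 39.7, 48.6 and 73.3 CPM and its Day 3 samples at 45.5, 51.8 and 69.3 CPM, a log2 fold change of 0.11 (SE 0.05, adjusted p = 0.043). It then declined, to -0.24 on Day 15 (SE 0.05, adjusted p = 8.5e-05) and -0.38 on Day 21 (SE 0.05, adjusted p = 3e-07), when the samples lay at 27.3, 39.3 and 48.3 CPM and 23 of 24 animals were below their control. Between Day 3 and Day 21 it fell in 24 of 24 animals, by 0.30 to 0.90, with a mean change of -0.49 (SE 0.04, adjusted p = 1.1e-11). The summed early change was -0.12 (SE 0.04, adjusted p = 0.028) and missed the threshold with DESeq2, TMM scaling, no filter, no block, samples of 1 library series, or library series as a covariate (adjusted p from 0.0504 to 0.0996).

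**Figure D3:**
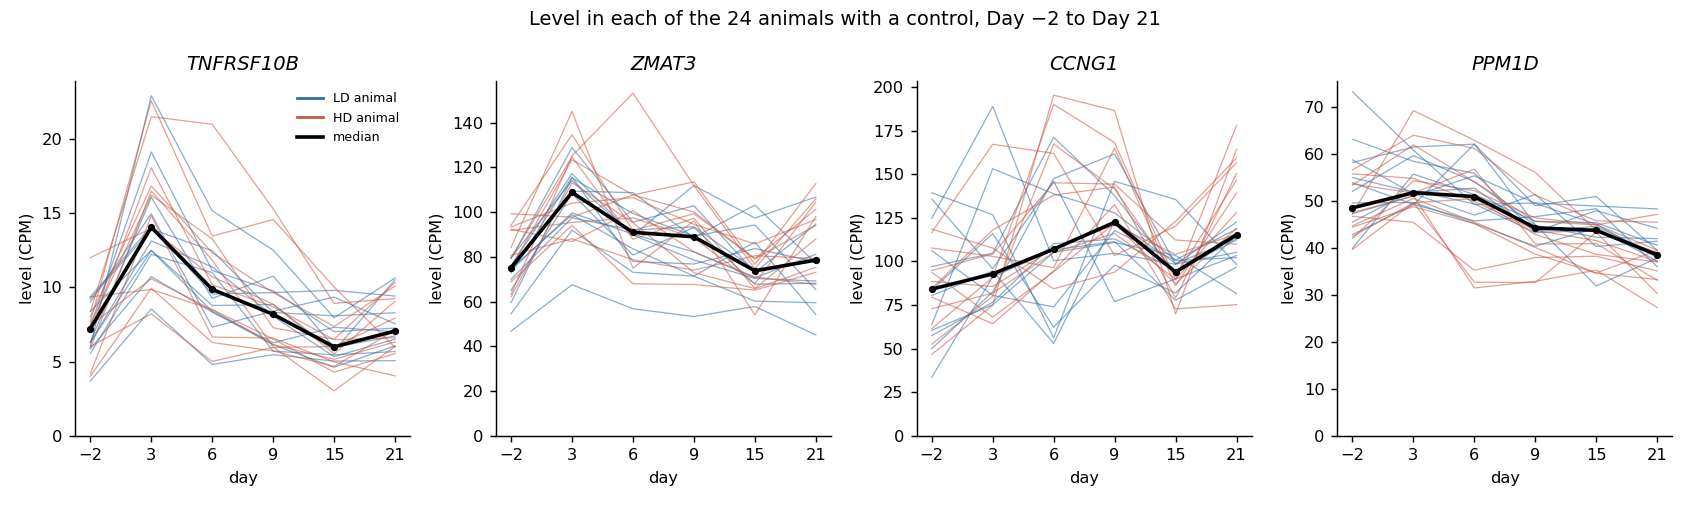
Level in CPM (y axis, linear from 0) of TNFRSF10B, ZMAT3, CCNG1 and PPM1D in the 24 animals with a control, by day (x axis), with a thin line per animal, LD in blue and HD in red, and the median in black. The TNFRSF10B median goes from 7.22 before irradiation to 14.1 CPM on Day 3 and 5.99 CPM on Day 15, and every animal is higher on Day 3 than before.

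RPS27L, a ribosomal protein-like gene induced by p53 that also binds MDM2, was the only one of the 8 called over the whole early window. Its controls lay at 1.79, 5.69 and 10.7 CPM. The early log2 fold change was 0.71 (SE 0.15, adjusted p = 0.00039), with 18 of 24 animals higher. By day, the median was 7.48 CPM on Day 3 (0.65, SE 0.16, adjusted p = 0.0012), 9.08 CPM on Day 9 (0.83, SE 0.20, adjusted p = 0.0015) and 8.98 CPM on Day 21 (0.84, SE 0.18, adjusted p = 0.00022), all calls, and the fall from Day 3 that TNFRSF10B and ZMAT3 showed was not seen (0.20 upward, SE 0.14, adjusted p = 0.19).

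RPS27L was lower late than in the medium window. The 16 animals with medium and late samples went from a median of 4.87 to 2.95 CPM, 14 of them downward, a log2 fold change of -0.69 (SE 0.13, adjusted p = 0.0003) where 22% of all genes were called and 64.3% passed. On Day 210 the 6 samples lay at 1.53, 2.33 and 3.08 CPM, -0.89 against control (SE 0.29, adjusted p = 0.027), while on Day 240 they lay at 2.83, 8.09 and 11.1 CPM (0.85, SE 0.38, adjusted p = 0.18). The late against medium value fell under the fold limit with libraries of series C only (-0.57, adjusted p = 0.0045), with DESeq2 (-0.55) and without a filter (-0.58). RPS27L is uncertain for a further reason: 22.4% of its 50-base stretches are shared with LOC708492, so that reads of the 2 genes cannot always be told apart. Its paralog RPS27, a ribosomal protein gene, also changed by -0.83 between the medium and late windows (SE 0.18, adjusted p = 0.0007).

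SESN1, a sestrin that restrains mTORC1 through the GATOR complexes, was the only gene of the 8 that was lower on both Day 3 and late. It lay at 24.1, 37.7 and 96.002 CPM in the controls and at 22.5, 33.6 and 51.4 CPM on Day 3, a log2 fold change of -0.26 (SE 0.07, adjusted p = 0.0026) with 17 of 24 animals lower. It was back on Day 21 (0.01, SE 0.07), having risen in 20 of 24 animals since Day 3 (0.27, SE 0.05, adjusted p = 1.8e-05). On Day 180 the 6 samples lay at 16.3, 25.2 and 28.7 CPM and on Day 210 at 12.9, 21.9 and 28.4 CPM, with all 6 animals below their control on both days. The log2 fold changes were -0.61 (SE 0.15, adjusted p = 0.0087, background 18.7%) and -0.83 (SE 0.15, adjusted p = 0.0014).

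Over the whole late window SESN1 was lower in 12 of 14 animals (-0.41, SE 0.14, adjusted p = 0.017). It missed the threshold with DESeq2 (-0.30, adjusted p = 0.061), with TMM scaling (adjusted p = 0.051) and without a filter (adjusted p = 0.059). The Day 180 call also fell under the fold limit with DESeq2 (-0.55) and TMM scaling (-0.56), while Day 210 stayed a call in every alternative fitted. Of the other sestrins, SESN3 was called higher early (0.69, SE 0.06, adjusted p = 3e-10), and SESN2, the stress-induced sestrin, gave 0.33 late (SE 0.14, adjusted p = 0.052).

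TP53INP1, a nuclear and autophagy protein induced by p53, changed most of the 8. Its controls lay at 113.8, 151.6 and 299.9 CPM. It passed as early as Day 3 (0.31, SE 0.07, adjusted p = 0.00074) and was 0.49 on Day 6 (SE 0.11, adjusted p = 0.00052), then neared control on Day 15 (0.13, SE 0.07, adjusted p = 0.12) and Day 21 (0.12, SE 0.09, adjusted p = 0.27). From Day 30 it rose again, and over the medium window it was higher in 23 of 24 animals (0.68, SE 0.07, adjusted p = 3.3e-08).

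The late samples of TP53INP1 lay at 161, 379 and 2110 CPM, the last being the HD library of Day 120 that stands apart, whose animal has no control and is in no comparison with control. Summed per animal, the late level ran from 252 to 1062 CPM over 14 animals and the control level from 112.2 to 296 CPM, ranges that overlap between 252 and 296 CPM. All 14 animals were higher, by 0.47 to 3.24, with a log2 fold change of 1.58 (SE 0.21, adjusted p = 1.8e-05). By day it was 0.76 on Day 60 (SE 0.13, adjusted p = 0.00065, background 4.23%), 0.91 on Day 90 (SE 0.16, adjusted p = 0.00096, 7.06%), 1.62 on Day 120 (SE 0.24, adjusted p = 0.00014, 31.8%) and 1.796 on Day 150 (SE 0.18, adjusted p = 1.6e-05). The 9 samples of Day 150 lay at 342, 525 and 927 CPM, all above every control, and without the LD library that stands apart the Day 150 change was 1.76 (8 animals, adjusted p = 4.8e-05).

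Later days gave lower values from fewer animals. TP53INP1 was 1.00 on Day 180 (SE 0.15, adjusted p = 0.00069) and 0.81 on Day 210 (SE 0.16, adjusted p = 0.002), with 6 of 6 animals higher on each. On Day 240 and Day 270 it was 0.97 (SE 0.34, adjusted p = 0.093) and 1.18 (SE 0.30, adjusted p = 0.075), with 5 and 6 of 6 animals higher. In the 6 animals followed to the end, its median went from 174 CPM before irradiation to 476 CPM on Day 150 and 351 CPM on Day 270. Against the medium window the late change was 1.06 (SE 0.18, adjusted p = 7.8e-05, 15 of 16 animals), 0.95 without the 3 libraries that stand apart and 1.00 within library series C.

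**Figure D4:**
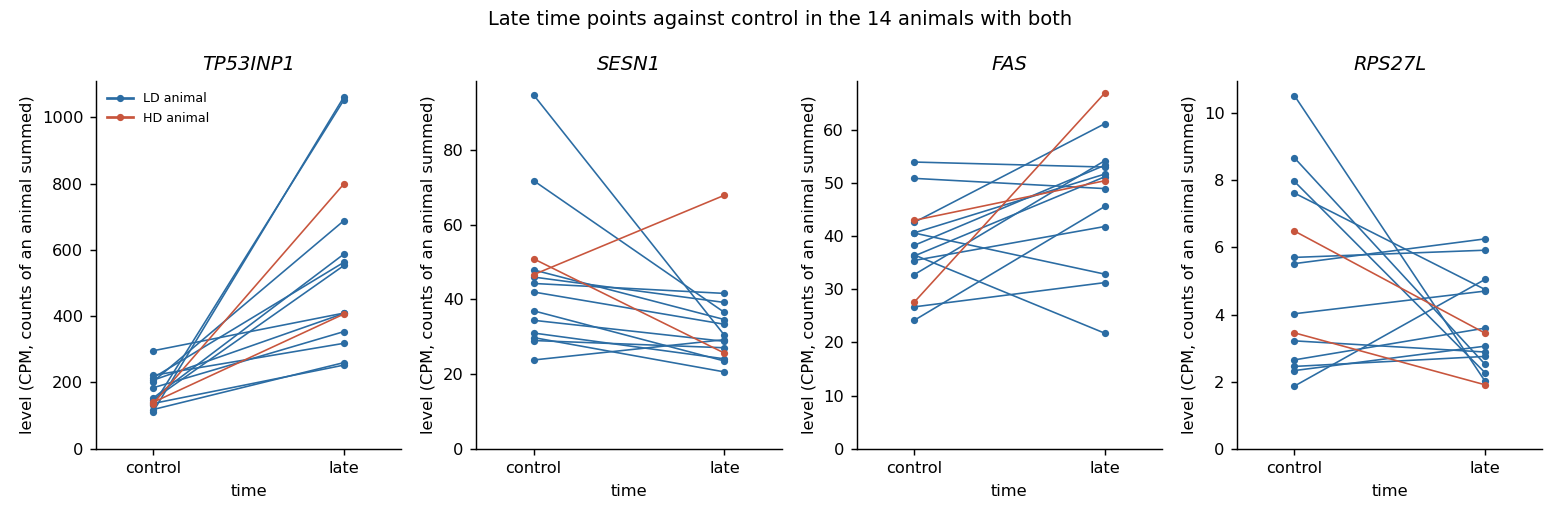
Level in CPM (y axis, linear from 0) of TP53INP1, SESN1, FAS and RPS27L, with the counts of an animal summed per window, in the control and late windows (x axis) of the 14 animals with both, with 1 line per animal, LD in blue and HD in red. All 14 TP53INP1 lines rise and 12 of 14 SESN1 lines fall, while the RPS27L lines go 7 up and 7 down.

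The scaling bears on the late values. The median log2 fold change of all genes tested was -0.13 late and -0.19 between the medium and late windows, and -0.01 late with DESeq2. Relative to that median, TP53INP1 changed by 1.70, FAS by 0.44, PPM1D by 0.29 and SESN1 by -0.29 late. The late change of PPM1D, 0.16 (SE 0.09, adjusted p = 0.14) in the fit reported, passed with DESeq2 (0.28, adjusted p = 0.029) and TMM scaling (0.26, adjusted p = 0.047).

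Cell types moved over the same days, and in whole blood fewer cells of a type and less RNA per cell cannot be told apart. On Day 3 all 10 B cell markers were called lower (median log2 fold change -1.32, summed level 369 to 2720 CPM in the controls and 216 to 1275 on Day 3), 7 of 9 monocyte markers higher (0.99, 1376 to 9686 and 3331 to 8518 CPM) and all 9 platelet markers higher (1.22, 872 to 4748 and 2107 to 10033 CPM). Late, all 10 B cell markers (-1.98, 65.1 to 1023 CPM) and 7 of 9 T cell markers (-0.77, 828 to 1993 CPM in the controls and 241 to 1904 late) were called lower and 8 of 10 neutrophil markers higher (1.64, 824 to 7710 and 1576 to 15674 CPM). TRAT1, FCN1 and PF4 of the T cell, monocyte and platelet lists were not in the table, and no defining marker was at 0 in all samples of a group. Over the early window all 10 reticulocyte markers were called higher (1.76). Of all genes tested, 11.5% were called on Day 3, 7.53% early and 32.5% late. The part of these shifts in the changes of the 8 genes was not tested.

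The same holds for 2 response lists. Of 12 glucocorticoid-response genes, 9 were called higher late, where 32.5% of all genes were called (median 1.27, summed level 1358 to 4408 CPM in the controls and 1051 to 20455 late). Of 16 interferon-response genes, 10 were called higher on Day 3 and early, where 11.5% and 7.53% of all genes were called. Late, 1 was called higher and 4 lower, a share near the 32.5% of all genes. Each gene was correlated with the log2 summed level of each list over the 304 samples of 28 animals. These samples share animals, depth and cell composition. TP53INP1 ran with the glucocorticoid list (Pearson r 0.71) and against the T cell markers (-0.74). It also ran with the neutrophil (0.60), monocyte (0.58) and naive lymphocyte markers (0.46). PPM1D ran with the glucocorticoid list as well (0.73), and with the neutrophil and monocyte markers (0.79 for both). SESN1 ran against the neutrophil and monocyte markers (-0.53 and -0.57), and TNFRSF10B ran with the T cell markers (0.50). The neutrophil and monocyte lists share the gene CSF3R, so their results are not independent of each other.

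The genes most like each of the 8 over the 304 samples, by Pearson r of log2 CPM, separate them further. TNFRSF10B was most like DDB2 (0.66), itself a p53 target that recognises UV damage, and QDPR and PDE12 (0.61 for both). RPS27L was most like the ribosomal protein genes RPL39 (0.85), RPL27 (0.83) and RPS25 (0.83), and CCNG1 most like MATR3 (0.88), EIF3E (0.87) and NUDT21 (0.87). SESN1 was most like BTLA (0.72) and IL7R (0.66), both lymphocyte receptors, and PCMTD2 (0.68), TP53INP1 most like KDM7A (0.92), SENP2 (0.91) and RIT1 (0.91), PPM1D most like XPO6 (0.84), RNASET2 (0.82) and ASF1B (0.82), FAS most like VCPIP1 (0.71), ZNF267 (0.70) and C3H21orf91 (0.69), and ZMAT3 most like CAPRIN1 (0.67), TPP2 (0.64) and SETD7 (0.64). Among themselves the 8 were loosely related: RPS27L with CCNG1 (0.69) and CCNG1 with SESN1 (0.52) were highest, and TNFRSF10B and ZMAT3 gave 0.37.

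Among other p53 targets, calls on Day 3 were all higher. Of 29 tested, 8 were called higher on Day 3 and none lower, where 11.5% of all genes were called, with 18 passing higher and 2 lower, and their median log2 fold change was 0.26 against -0.06 for all genes. EDA2R, a receptor of the TNF family (2.72, SE 0.18, adjusted p = 4.3e-13), and CDKN1A, the p21 cyclin-dependent kinase inhibitor (1.59, SE 0.08, adjusted p = 1.1e-15), rose most. By Day 21 both had fallen again (by 2.02 and 1.37 since Day 3), among 7 called lower, where 15.1% of all genes were called. Late, when 32.5% of all genes were called, 9 were called higher and 4 lower: CDKN1A (0.97, SE 0.11, adjusted p = 5.1e-06) and the autophagy regulator DRAM1 (1.02, SE 0.16, adjusted p = 7.1e-05) rose, and PHLDA3 (-1.36, SE 0.17, adjusted p = 7.6e-06) and AEN (-1.10, SE 0.14, adjusted p = 8.9e-06) fell.

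Among 22 genes of death receptor signalling, 2 were called on Day 3, both higher, a share close to the 11.5% of all genes. They were the receptor TNFRSF21 (1.62, SE 0.07, adjusted p = 6.5e-17) and TNFSF10, the TRAIL ligand of TNFRSF10B (0.60, SE 0.07, adjusted p = 3.5e-08). Late, with 32.5% of all genes called, 5 of the 22 were called higher, among them TNFRSF1A, a TNF receptor (1.05, SE 0.19, adjusted p = 0.0002). The 4 called lower late included the inhibitor of apoptosis BIRC3 (-0.96, SE 0.26, adjusted p = 0.0045) and the adaptor TRAF2 (-0.73, SE 0.13, adjusted p = 0.00016). Of 15 genes that control p53, none was called on Day 3, against 11.5% of all genes, and 2 were called higher and 3 lower late, against 32.5%. The ubiquitin ligase SIAH1 (1.13, SE 0.18, adjusted p = 5.5e-05) and the stress kinase MAPK14 (0.82, SE 0.19, adjusted p = 0.0016) rose, and TP53BP1 (-0.88, SE 0.10, adjusted p = 3.1e-06) and the kinase ATM (-0.85, SE 0.15, adjusted p = 0.00021) fell most.

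Among 16 paralogs of the 8 genes, 3 were called higher early, where 7.53% of all genes were called. Late, where 32.5% of all genes were called, 6 were called higher and 1 lower, with no test of a paralog against its member. PPM1A, a phosphatase related to PPM1D, was called higher early (1.02, SE 0.09, adjusted p = 5e-10), as was ZMAT2, a splicing factor (0.88, SE 0.09, adjusted p = 1.3e-08), which was also called higher late (1.17, SE 0.18, adjusted p = 5.4e-05), and PPM1K was called lower late (-0.80, SE 0.14, adjusted p = 0.00012). TP53INP2, which like TP53INP1 acts in autophagy, was called higher late (1.73, SE 0.34, adjusted p = 0.00034) but gave -0.28 early (SE 0.17, adjusted p = 0.16), and CCNG2, the relative of CCNG1, was called higher late (0.95, SE 0.14, adjusted p = 3.5e-05). Of 14 FOXO targets, 7 were called higher and 3 lower late, against the same 32.5% of all genes, led by BCL6 (1.61, SE 0.26, adjusted p = 7.5e-05) and IRS2 (1.27, SE 0.19, adjusted p = 4.6e-05) and by IL7R (-0.94, SE 0.17, adjusted p = 0.00016) and FBXO32 (-0.87, SE 0.13, adjusted p = 4.3e-05). Of 15 GATOR and autophagy genes, partners of SESN1 and TP53INP1, the share called late was near that background: 4 were called higher, with GABARAPL1 (1.11, SE 0.20, adjusted p = 0.00017) and ULK1 (0.85, SE 0.19, adjusted p = 0.0013) the most, and 1 lower (NPRL2, -0.60, SE 0.12, adjusted p = 0.00058).

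The doses could be compared early, over Days 3 to 21, in 12 animals each, as the difference of the changes from control (HD minus LD). No member and no gene of all was called or passed (background 0%), with 761 genes at an unadjusted p under 0.05 and none called by DESeq2. The 8 differences lay between -0.14 for ZMAT3 (SE 0.09) and 0.29 for TP53INP1 (SE 0.15, adjusted p = 0.86). TNFRSF10B rose in 12 of 12 LD and 10 of 12 HD animals and differed by -0.02 (SE 0.16, adjusted p = 0.99). By sex, in 12 females and 12 males, no gene was called or passed either (background 0%, 0.894% of genes at an unadjusted p under 0.05, none by DESeq2), and the 8 differences lay between -0.08 and 0.10.

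ZMAT3 was the only one of the 8 to pass in the difference between doses over Days 30 to 60, where 3.93% of all genes were called and 7.92% passed. In the LD animals it lay at 48.99, 76.9 and 83.3 CPM before irradiation and at 72.99, 97.9 and 121.5 CPM on Days 30 to 60, higher in 12 of 12. In the HD animals it lay at 65.04, 86.3 and 103.9 CPM before and at 58.4, 83.8 and 104.8 CPM after, lower in 8 of 12. The difference of the changes was -0.48 (SE 0.11, adjusted p = 0.0045), under the fold limit. On Day 60 only 9 of the 12 HD animals with a control were sampled, so the days summed differ between the doses. Mean changes on Days 30, 40 and 60 were 0.23, 0.52 and 0.49 in LD animals. In HD animals they were -0.08, 0.04 and -0.34, with the library that stands apart included on Day 40. The controls of the 2 doses differed by 0.24 (SE 0.10, adjusted p = 0.57). In that comparison no gene was called by edgeR (background 0%, 1087 genes at an unadjusted p under 0.05) and 10 were by DESeq2. Without the controls, the irradiated samples alone, from 28 animals, differed by -0.23 (SE 0.10, adjusted p = 0.092).

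The controls of the LD animals were all of library series A, and 4 of the 12 HD controls were of series C. In the animals whose control was of series A the ZMAT3 difference was -0.52 (SE 0.10, adjusted p = 0.0029), and in irradiated samples of series C alone, with no control, it was -0.20 (SE 0.12, adjusted p = 0.28). Without the animal block it missed the threshold (-0.48, SE 0.14, adjusted p = 0.11). In the same comparison 9 of 10 neutrophil markers (median 1.61) and 5 of 12 glucocorticoid-response genes (0.71) were called higher in the HD animals, and their part in the ZMAT3 difference was not tested. The next largest differences were -0.33 for TNFRSF10B (SE 0.15, adjusted p = 0.18), 0.29 for TP53INP1 (SE 0.14, adjusted p = 0.20) and 0.26 for PPM1D (SE 0.08, adjusted p = 0.057). PPM1D passed with DESeq2 (0.30, adjusted p = 0.021), with TMM scaling (0.31, adjusted p = 0.032) and without the 3 libraries that stand apart (0.26, adjusted p = 0.046). TP53INP2, the paralog of TP53INP1, was called higher in HD (1.28, SE 0.25, adjusted p = 0.0017).

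**Figure D5:**
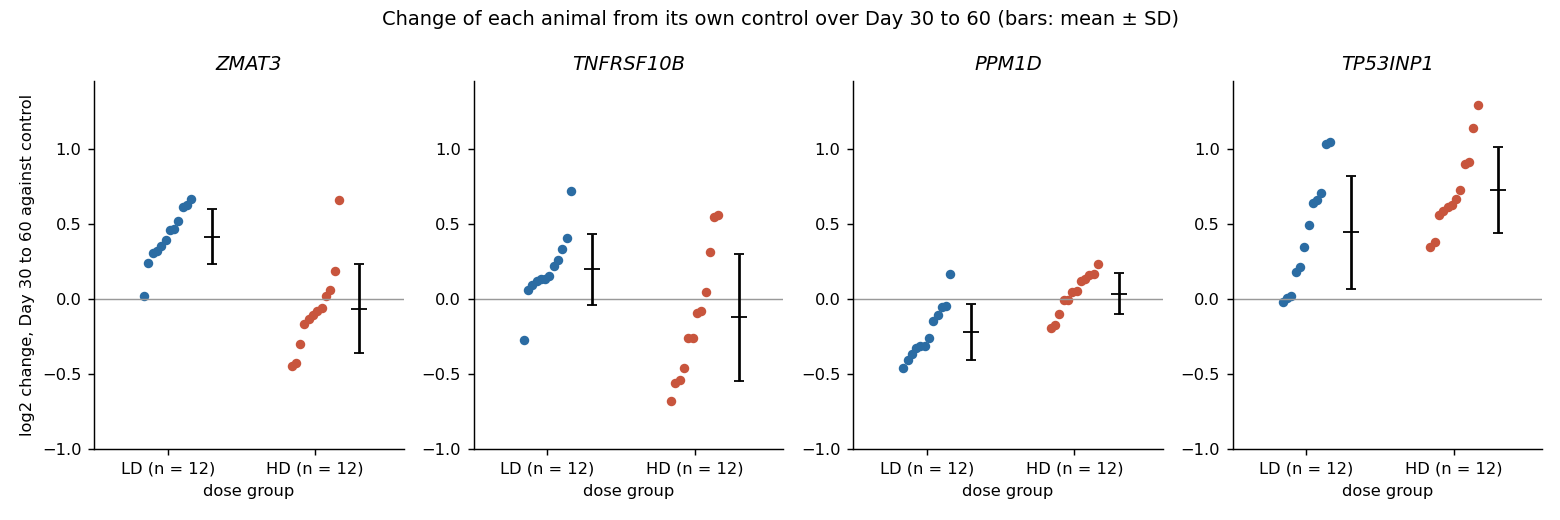
Log2 change in CPM from the own control over Days 30 to 60 (y axis) of ZMAT3, TNFRSF10B, PPM1D and TP53INP1 in the 12 LD and 12 HD animals (x axis), with 1 point per animal and bars for the mean ± SD. All 12 LD animals lie above 0 for ZMAT3 and 8 of the 12 HD animals below it, and the values of the 2 doses overlap for each gene.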

How the data were processed

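The study's blood RNA was depleted of ribosomal RNA and sequenced from stranded libraries. The authors trimmed reads with cutadapt 2.10, aligned them to Mmul_10 with STAR 2.7.6a and counted them per gene with Subread 2.0.1, and the deposited file holds raw counts of 21070 genes. The deposited log2 values, normalised by the authors, served only as an alternative. Genes with at least 3 counts in 80% of samples were kept. edgeR 4.0.16 quasi-likelihood tests with upper quartile scaling and the animal as a block were fitted over all 13751 genes, with the counts of an animal summed per window and Benjamini-Hochberg adjustment, and the standard error was taken from the fold change and its F value. Control and irradiated samples were paired because they came from the same animal. Scripts were tested on simulated data. R 4.3.3, limma 3.58.1, DESeq2 1.42.0, Python 3.11.15, pandas 2.3.3, NumPy 2.4.6 and Matplotlib 3.10.9 were used. The 8 genes, the gene lists and the cell type markers were chosen with earlier results of these data known. From each pathway list, in the comparisons described for it, the 2 called genes that rose most and the 2 that fell most were named, except 1 gene that is not reported here, with the 3 genes most like each member by Pearson r and some of the paralogs. Marker and response lists are given as counts. Alternatives changed the scaling, tool, filter, block, library series or animals.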

Additional observations from a re-analysis of the deposited data

Results flagged for a closer look

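Of 48 combinations of the 8 genes with 6 dose and day groups of 4 to 10 samples, 4 held a sample far from the others by Dixon's criterion, which chance gives in about 1 of 20. On Day 150 the shallowest LD library, at 2840219 counts, was at 0.0 CPM for TNFRSF10B, where the others lay from 3.94 to 11.9 CPM, and at 0.0 CPM for RPS27L, where the others lay from 1.452 to 4.61 CPM. On Day 210 the FAS level of the same animal was 65.5 CPM, above the 27.8 to 31.97 CPM of the other LD animals. On Day 90 an HD animal had 2.82 CPM of RPS27L, below the 5.04 to 6.32 CPM of the others.

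The ZMAT3 change over Days 30 to 60 differed between HD and LD by -0.48 (SE 0.11, edgeR adjusted p = 0.0045). This difference between groups missed the threshold in irradiated samples alone, from 28 animals (-0.23, edgeR adjusted p = 0.092).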

How the results depend on the processing

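Most values kept their direction and their side of the threshold. Of the counts of the 8 genes, those called in the medium window went from 1 to 2 in the 4 animals with samples of 1 library series, and those called between late and medium from 2 to 1 with DESeq2, without a filter and in series C only. Those that passed in the medium window went from 2 to 4 with DESeq2 and TMM scaling, and from 2 to 4 over the fits that leave out 1 animal each, the 4 being without the HD animal whose Day 40 library stood apart. Those that passed in the dose difference of Days 30 to 60 went from 1 to 2 with DESeq2, TMM scaling and without the 3 libraries apart, and to 0 in irradiated samples, in irradiated samples of series C and without the replicate block, that is, without pairing samples by animal. The settings by library series within series C or 1 series, the irradiated samples alone and the 3 libraries left out were chosen after seeing the data.

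Direction changed only for values that did not pass. TNFRSF10B in the medium window, -0.007, became 0.027 with DESeq2, 0.024 with TMM scaling, 0.074 with series as a covariate, 0.0027 without a filter, 0.095 within the control's series, 0.011 without the 3 libraries, and -0.038 to 0.026 leaving out single animals. In the medium window SESN1 became 0.078 within the control's series, and PPM1D 0.18 with the covariate and 0.038 within the series. Late, ZMAT3 became 0.015 with DESeq2 and CCNG1 -0.12 with the covariate and -0.0046 to 0.21 leaving out single animals. FAS between late and medium became -0.034 without the 3 libraries. In the dose difference of Days 30 to 60 SESN1 became 0.014 without the block and TP53INP1 -0.0040 in irradiated samples of series C. The cause was not tested. Depth limits TNFRSF10B and RPS27L most.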

Other observations

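Of the medium and late samples, 8 were last draws off the schedule, from Day 71 to Day 172, and are part of the window values above. The animal drawn on Day 129 had no control and is in no comparison with control. The paper states that animals falling severely ill between scheduled draws were euthanised and bled a last time. The labels do not say which draws these were. Against the animal's preceding draw, PPM1D was higher in 5 of 8, TNFRSF10B, ZMAT3 and TP53INP1 in 4, FAS, CCNG1 and SESN1 in 3 and RPS27L in 2.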
